A study of Mus musculus with 11 samples.

Results

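This account concerns 9 genes of the early involution switch, Stat3, Lif, Osmr, Il6st, Cebpd, Bcl3, Igfbp5, Clu and Pik3r1, out of 22196 genes measured in the mouse mammary gland. They were chosen by name for their known roles, and all 9 were found. Inguinal mammary glands of 11 mice were sequenced, and every mouse carried floxed Tsc1 alleles, which the recombinase Cre can delete. In 6 of them, labelled Knockout and Tsc1-fl/fl; Adipoq-Cre-Tg/+, a Cre transgene driven by the adiponectin gene deletes Tsc1, a restraint on the kinase complex mTORC1, in adipocytes. The other 5, labelled Wild-Type and Tsc1-fl/fl; Adipoq-Cre-+/+, carry the same floxed alleles and no Cre. All mice had normal chow, were sampled 16 days after delivery and have the age label PND16.5. Lactation is not stated in the labels. The adiponectin promoter acts in fat cells, so that other cells of the gland keep Tsc1.

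Involution is the return of the milk-producing gland to its resting state after weaning. Milk stasis induces the cytokine LIF, which signals through receptors that share the subunit gp130 to the kinase JAK1 and the transcription factor STAT3. Active STAT3 turns on Cebpd, Bcl3 and the short forms of the PI3-kinase subunit encoded by Pik3r1, which weaken survival signals through AKT, while the secreted proteins encoded by Igfbp5 and Clu are known markers of this phase. These relations are background from earlier knowledge and were not measured here.

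The form of Pik3r1 that carries the STAT3 response is told apart from the long form by its start, so the coding sequence around the point where both forms join is shown first (GENCODE M21, GRCm38, 5′ to 3′ on the minus strand of chromosome 13, spliced). Capitals mark bases found in one form and not the other, and lower case marks the start of the part both share.
p55 form: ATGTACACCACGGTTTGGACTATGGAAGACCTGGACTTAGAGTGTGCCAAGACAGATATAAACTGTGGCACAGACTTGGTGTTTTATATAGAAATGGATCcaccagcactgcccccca
p85 form: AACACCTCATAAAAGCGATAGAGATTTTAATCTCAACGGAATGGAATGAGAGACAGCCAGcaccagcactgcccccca
The p55 form has 100 coding bases of its own, all shown, and the p85 form has 910, of which the last 60 are shown. The following 1265 coding bases are the same in both, so that the estimates of the 2 forms rest on these own parts. The tables list no other full-length short form, and reads of one that shares the 3′ part would be counted with p55.

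Stat3 also has a shorter form, known as beta, which lacks the end of the protein that activates transcription. It differs from the full-length form by 50 skipped bases, in capitals below (chromosome 11, minus strand, GRCm38).
Full-length Stat3: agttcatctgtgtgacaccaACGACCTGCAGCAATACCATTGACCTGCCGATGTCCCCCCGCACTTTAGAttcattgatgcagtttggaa
Shorter Stat3: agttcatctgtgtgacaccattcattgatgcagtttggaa

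Depth ranged from 25817975 to 37894237 estimated reads per library. Values are CPM, read counts scaled to a common library size with TMM factors, a scaling which sets the bulk of genes to the same level in every library. The milk protein markers Csn1s1, Csn2, Wap, Lalba and Csn3 were lowest in Knockout 1, with a sum of 340053 CPM, and highest in Wild-Type 3, with 593423 CPM, so that milk genes of the labelled tissue were abundant in every library. The Tsc1 level was 10.1 CPM ± 1.33 (SD, n = 6) with Cre and 10.7 CPM ± 1.11 (SD, n = 5) without (edgeR adjusted p = 0.772), a value for the whole gland that does not check the deletion in fat cells. Knockout 1 stood apart with skeletal muscle markers at 1986 CPM, against 1.07 to 167 CPM in the other 10 libraries. Summed adipocyte markers lay between 887 and 1424 CPM with Cre and between 508 and 813 CPM without, groups that did not overlap, with 4 of 5 markers higher and 0 called. Their part in the results was not tested. In bulk tissue, fewer cells of a type and less RNA per cell cannot be told apart. The labels number the samples as replicates without saying how the animals were housed or related, so that p-values measure the spread between these samples.

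Per transcript length, the members spanned a wide range of levels. The order of median TPM (a level scaled to coding length and to a common total) over the 11 libraries was Clu at 494, Cebpd at 60.3, Pik3r1 at 27.5, Stat3 at 16.3, Il6st at 3.95, Bcl3 at 1.46, Igfbp5 at 1.40, Osmr at 0.596 and Lif at 0.116. Clu, which encodes the secreted chaperone clusterin, did not overlap in its range with Cebpd, and Stat3 did not overlap with Il6st. The other neighbours in this order had overlapping ranges, and Bcl3 exceeded Igfbp5 in 6 of 11 libraries. Thus Lif and the receptor Osmr were the least abundant members by median, and Clu was the most abundant. Il6st, which encodes the shared receptor subunit gp130, had a higher median than Bcl3 and Igfbp5.

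**Figure D1:**
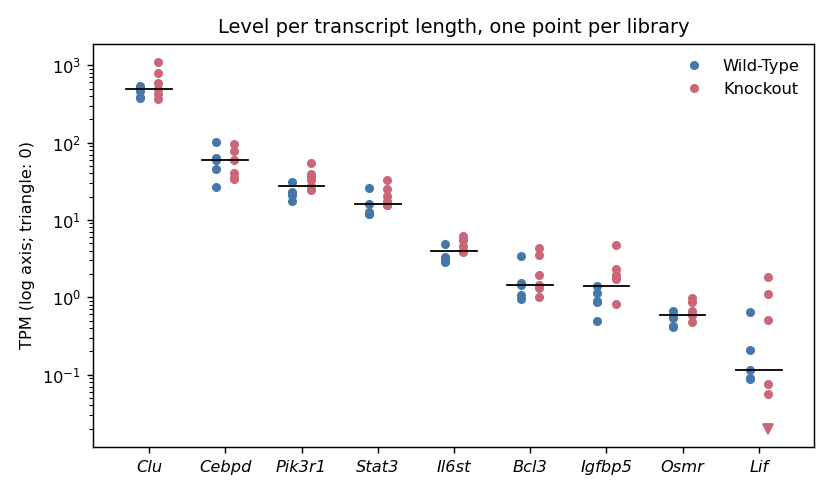
TPM (log axis) of each member in each library, Wild-Type in blue and Knockout in red, with a line at the median over the 11 libraries and a triangle for a library at 0. Medians run from 494 for Clu down to 0.116 for Lif.

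No member passed the threshold of 0.05 on the adjusted p-value in edgeR's quasi-likelihood test, among the 8 that could be tested. Over all 12716 genes tested 0.055% passed, 0.0472% higher and 0.00786% lower in Knockout. Lif was removed by the filter on low counts. At an unadjusted p under 0.05 there were 3 members, Pik3r1, Igfbp5 and Il6st, all with higher means in Knockout, where 6.31% of all genes reached this in that direction, 6.08% in the other and 12.4% in either. This count was 1, Pik3r1 alone, without Knockout 1 and also without Wild-Type 2. DESeq2 called 0 members, against 1.09% of the genes with an adjusted p-value there. Of the 8 tested members 7 had a positive log2 fold change and 1 a negative one, with a median of 0.19 against -0.01 over all genes tested. For no member did the Knockout libraries all lie on one side of the Wild-Type libraries, which held for 1.32% of all genes.

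**Figure D2:**
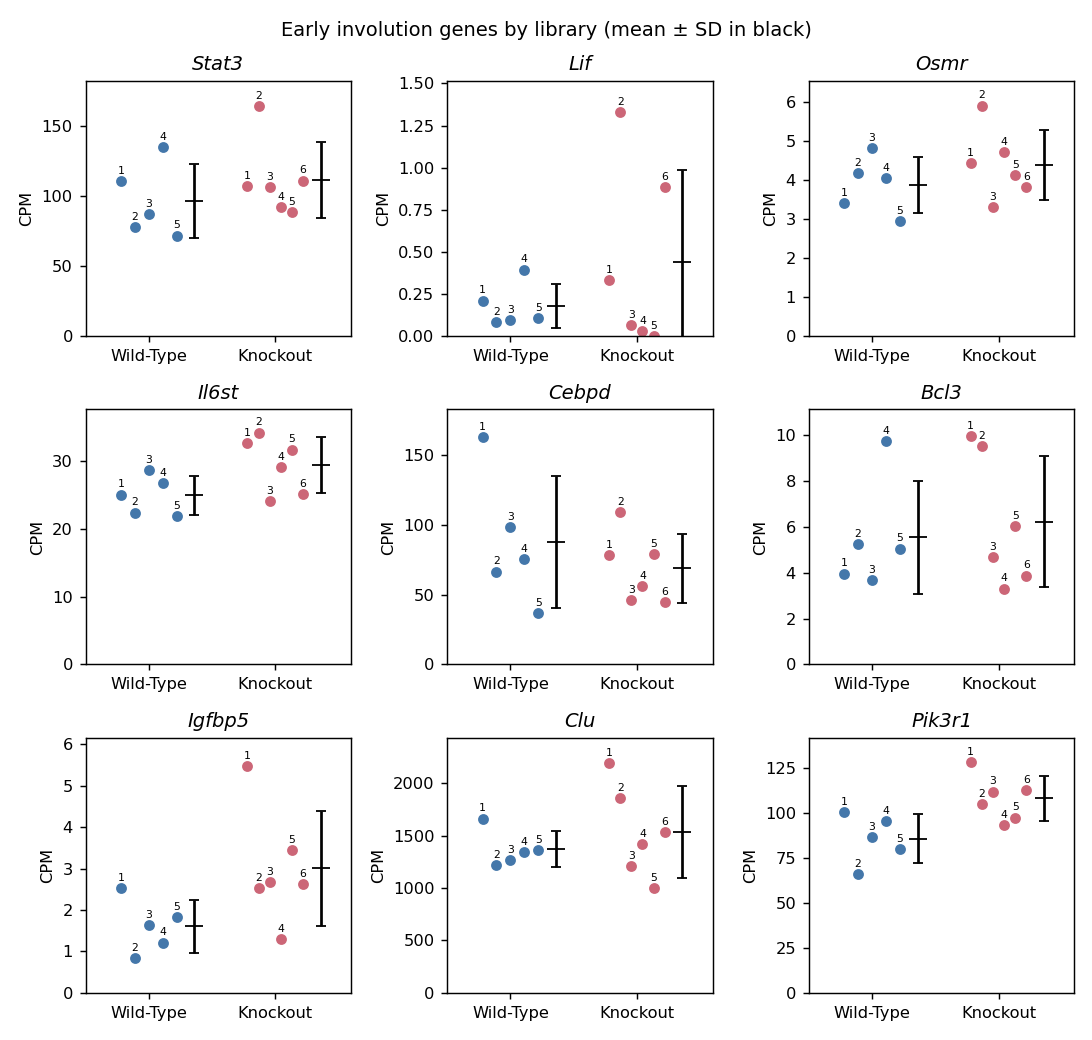
CPM of the 9 members in each Wild-Type (blue, n = 5) and Knockout (red, n = 6) library, numbered by replicate, with mean ± SD in black (the lower bar of Lif in Knockout is cut at 0). The genotypes overlap in every panel, and the Knockout mean of Pik3r1, 108 CPM, lies above the Wild-Type mean of 85.9 CPM.

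Lif (chromosome 11, 4257557 to 4272514, plus strand; these and the following gene positions are in GRCm38), the cytokine at the start of the pathway, was close to the limit of detection. Knockout libraries 1 to 6 held 0.333, 1.33, 0.0661, 0.0301, 0 and 0.882 CPM, and Wild-Type libraries 1 to 5 held 0.210, 0.0835, 0.0942, 0.395 and 0.105 CPM. Knockout 2 and Knockout 6 were high and the other Knockout libraries lay within or below the Wild-Type range. These values rest on 88 reads in Knockout and 27 in Wild-Type libraries together, and the 0 reads in Knockout 5 allow up to 3 reads or 0.110 CPM, a limit that covers counting error only. The difference of 0.26 CPM between the means did not exceed the spread (exact permutation test, two-sided, p = 0.396). It was 0.085 CPM without Knockout 2 and 0.174 CPM without Knockout 6 (exact permutation test, p = 0.762 in each). Tested without the filter on low counts, the log2 fold change was 1.26 (edgeR adjusted p = 0.615).

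The receptor Osmr (chromosome 15, 6813577 to 6874969, minus strand), which binds oncostatin M, ranged from 3.30 CPM through a median of 4.27 to 5.90 CPM in Knockout. In Wild-Type libraries 1 to 5 it was at 3.40, 4.18, 4.81, 4.04 and 2.95 CPM. The ranges overlapped, and the log2 fold change was 0.18 ± 0.16 (SE; 95% interval -0.18 to 0.53; edgeR adjusted p = 0.692). It was 0.08 without Knockout 2, 0.09 without Wild-Type 5 and 0.27 without Wild-Type 3.

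Il6st (chromosome 13, 112464070 to 112510086, plus strand) encodes gp130, the signalling subunit shared by the receptors of LIF, oncostatin M and interleukin 6. It ranged from 24.0 CPM through a median of 30.4 to 34.2 CPM in Knockout, and was at 25.0, 22.4, 28.6, 26.8 and 21.9 CPM in Wild-Type libraries 1 to 5. In 4 Knockout libraries it exceeded every Wild-Type library, and the other 2 lay within the Wild-Type range. The log2 fold change was 0.24 ± 0.11 (SE; 95% interval 0.0049 to 0.48; unadjusted p = 0.0460, edgeR adjusted p = 0.396). The authors' normalized table gave 0.97 (limma adjusted p = 0.559), and offsets for average transcript length gave 0.96. A listed transcript of 137 bases, with at least 1 library at an effective length of 3 bases, held at most 9.71 reads. When transcripts under 100 effective bases were left out of the average length, the value for Il6st was 0.24 again.

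Stat3 itself (chromosome 11, 100885098 to 100939540, minus strand), the transcription factor at the centre of the switch, ranged from 88.6 CPM through a median of 107 to 164 CPM in Knockout. Wild-Type libraries 1 to 5 were at 111, 77.6, 86.9, 135 and 71.7 CPM. Knockout 2 and Wild-Type 4 were the highest of their groups, and the lowest 3 of the 11 libraries were Wild-Type. The log2 fold change was 0.21 ± 0.19 (SE; 95% interval -0.21 to 0.63; edgeR adjusted p = 0.685), and it was 0.07 without Knockout 2, 0.12 without Wild-Type 5 and 0.37 without Wild-Type 4. Stat3 overlaps Stat5a on the opposite strand at its annotated ends, and no source used here says whether counting used the strand. The counted Stat3 sequences have the length of their coding part with the stop codon, so that untranslated ends were not in them.

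Among the Stat3 forms, the shorter ones held a small share. Their share of the Stat3 TPM was 4.21% ± 1.43 (SD, n = 6) with Cre against 3.95% ± 1.83 (SD, n = 5) without. The range was 1.50045% to 5.46% in Knockout and 1.54% to 5.92% in Wild-Type, and the groups overlapped. The difference of 0.26 percentage points was within the spread (exact permutation test, two-sided, p = 0.801; 0.801 adjusted over the shares of Stat3 and Pik3r1). Its sign turned without Wild-Type 2, to -0.34, and without Wild-Type 5, to -0.03 percentage points.

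Cebpd (chromosome 16, 15887286 to 15891031, plus strand), a transcription factor that STAT3 is known to induce in the involuting gland, was the only tested member with a lower mean in Knockout. It ranged from 44.6 CPM through a median of 67.3 to 109 CPM in Knockout. Wild-Type libraries 1 to 5 were at 163, 66.5, 98.4, 75.4 and 37.1 CPM. Both the highest and the lowest of the 11 libraries were Wild-Type. The log2 fold change was -0.35 ± 0.36 (SE; 95% interval -1.14 to 0.43; edgeR adjusted p = 0.720), and it was -0.01 without Wild-Type 1 and -0.55 without Wild-Type 5.

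Bcl3 (chromosome 7, 19808462 to 19822770, minus strand), which encodes a partner of the NF-kappaB subunits p50 and p52 and is also known as a STAT3 target, ranged from 3.31 CPM through a median of 5.36 to 9.95 CPM in Knockout. Wild-Type libraries 1 to 5 were at 3.96, 5.26, 3.68, 9.75 and 5.05 CPM. Knockout 1, Knockout 2 and Wild-Type 4 were high, and the other 8 libraries lay between 3.31 and 6.02 CPM. The log2 fold change was 0.17 ± 0.34 (SE; 95% interval -0.59 to 0.92; edgeR adjusted p = 0.872). It ranged from -0.01 without Knockout 1 to 0.48 without Wild-Type 4, and it moved by over 1.5 times without each of 5 other libraries, Knockout 2, 4 and 6 and Wild-Type 1 and 3. With offsets for average transcript length it was 0.05, and on the authors' normalized table, tested with limma, it was 0.02. When transcripts under 100 effective bases were left out of the length it was 0.18.

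Igfbp5 (chromosome 1, 72857932 to 72874884, minus strand) encodes a secreted protein that binds insulin-like growth factors and is known to rise strongly in involution. It ranged from 1.29 CPM through a median of 2.65 to 5.46 CPM in Knockout. Wild-Type libraries 1 to 5 were at 2.52, 0.835, 1.63, 1.21 and 1.83 CPM. In 5 of 6 Knockout libraries it exceeded the highest Wild-Type library, by little in Knockout 2, and Knockout 4 lay within the Wild-Type range. This was the largest difference among the tested members, and its log2 fold change was 0.90 ± 0.35 (SE; 95% interval 0.15 to 1.66; unadjusted p = 0.0227, edgeR adjusted p = 0.345), on 20 to 246 reads per library. Without Knockout 1, the highest library, it was 0.64 (edgeR adjusted p = 0.514).

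Clu (chromosome 14, 65968483 to 65981547, plus strand) ranged from 998 CPM through a median of 1475 to 2192 CPM in Knockout and was at 1662, 1219, 1265, 1346 and 1362 CPM in Wild-Type libraries 1 to 5. Knockout 1 and Knockout 2 exceeded every Wild-Type library, and Knockout 3 and Knockout 5 were below every one. The log2 fold change was 0.16 ± 0.18 (SE; 95% interval -0.22 to 0.55; edgeR adjusted p = 0.745), and it was 0.04 without Knockout 1, 0.10 without Knockout 2 and 0.27 without Knockout 5.

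Pik3r1 (chromosome 13, 101680563 to 101768217, minus strand), which encodes the regulatory subunit of PI3-kinase, had the smallest p-value of the members. It ranged from 93.7 CPM through a median of 109 to 128 CPM in Knockout, and was at 101, 66.0, 86.9, 95.7 and 80.3 CPM in Wild-Type libraries 1 to 5. In 4 Knockout libraries it exceeded every Wild-Type library, and in 3 Wild-Type libraries it was below every Knockout library. The log2 fold change was 0.33 ± 0.11 (SE; 95% interval 0.09 to 0.58; unadjusted p = 0.0120, edgeR adjusted p = 0.310).

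The p55 form of Pik3r1, whose own start is printed above, had the higher Knockout mean. Its estimated level in Knockout libraries 1 to 6 was 94.3, 84.7, 73.7, 44.2, 47.8 and 66.9 CPM, and in Wild-Type libraries 1 to 5 it was 45.2, 42.8, 51.7, 53.9 and 41.5 CPM. Knockout 1, 2, 3 and 6 exceeded every Wild-Type library, and Knockout 4 and 5 lay within the Wild-Type range. Knockout had a mean of 68.6 CPM ± 19.9 (SD, n = 6) against 47.0 CPM ± 5.49 (SD, n = 5), a ratio of 1.46 (exact permutation test, two-sided, p = 0.0476, and 0.0952 adjusted over the p55 and p85 forms). Without Knockout 1 the ratio was 1.35 (exact p = 0.103).

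The p85 form had nearly equal means, 39.6 CPM ± 11.3 (SD, n = 6) in Knockout against 38.9 CPM ± 11.7 (SD, n = 5) in Wild-Type (exact permutation test, two-sided, p = 0.909). It was lowest in Knockout 2, at 20.4 CPM, and in Wild-Type 2, at 23.1 CPM, and highest in Wild-Type 1, at 55.6 CPM. The tests of the forms' levels were chosen after the values were seen.

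Whether the forms differed in response is tested by the share of the short form within Pik3r1. This share, which does not depend on scaling between libraries, was large in every library. It was 83.5%, 88.6%, 77.6%, 61.6%, 64.4% and 72.8% of the TPM in Knockout libraries 1 to 6, and 59.8%, 77.0%, 72.6%, 70.2% and 67.2% in Wild-Type libraries 1 to 5. Knockout 1, 2 and 3 were above every Wild-Type library, and the other 3 were among them. The means of 74.7% ± 10.6 (SD, n = 6) and 69.3% ± 6.43 (SD, n = 5) differed by 5.39 percentage points, within the spread (exact permutation test, two-sided, p = 0.335; 0.671 adjusted over the shares of Pik3r1 and Stat3). The difference was 2.62 percentage points without Knockout 2 and 2.99 without Wild-Type 1. Counted per length, most of the Pik3r1 level of all 11 glands was assigned to the listed p55 transcript. This transcript starts at position 101692630 of chromosome 13 (GRCm38), well inside the gene. Reads of an unlisted short form with the same 3′ part would be included in it.

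**Figure D3:**
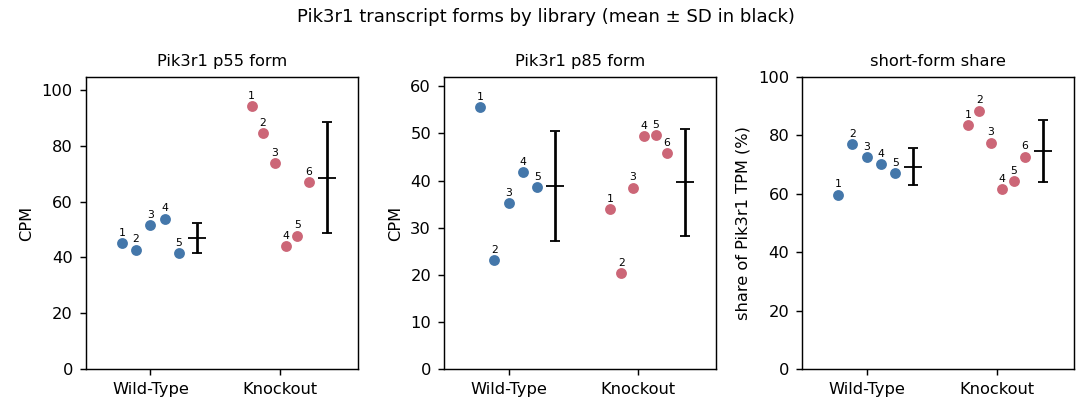
Estimated CPM of the p55 and p85 forms of Pik3r1 and the short-form share of its TPM (percent) in each library, Wild-Type in blue (n = 5) and Knockout in red (n = 6), numbered by replicate, with mean ± SD in black. In the p55 panel 4 Knockout libraries lie above all Wild-Type libraries, and in the share panel the genotypes overlap.

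The other genes of the pathway were described from 8 lists with 65 genes, of which 61 were tested and 0 passed the threshold in edgeR. At an unadjusted p under 0.05 there were 13, with 5 higher and 8 lower in Knockout, and DESeq2 called 2. Over all genes tested, 6.31% were at that p and higher, 6.08% were at that p and lower, and DESeq2 called 1.09%. The lists had 31 genes with a positive and 30 with a negative log2 fold change, and a median of 0.00 against -0.01 over all genes tested.

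Among the cytokines that use gp130, Osm, Il6, Il11 and Il27 were too low to test, with at most 9 reads in any library. Il6, the founding cytokine of the family, had at most 1 read. The 3 tested cytokines had negative log2 fold changes, and Cntf, which encodes a neurotrophic cytokine, had the smallest p-value, with 0.574 CPM ± 0.125 (SD, n = 6) in Knockout against 0.836 CPM ± 0.182 (SD, n = 5) in Wild-Type (log2 fold change -0.54; edgeR adjusted p = 0.370). Of the 31-base words in its full annotated transcripts, 78.4% are found in other genes too, mainly Zfp91. The members were counted on sequences of coding length, so how far this makes the counted level of Cntf uncertain was not measured.

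Of the 6 receptor genes, 2 had positive and 4 negative log2 fold changes, and 0 passed. Il11ra1, the receptor of interleukin 11, was at 18.0 CPM ± 1.61 (SD, n = 6) in Knockout against 23.3 CPM ± 3.86 (SD, n = 5) in Wild-Type (log2 fold change -0.38, edgeR adjusted p = 0.269). Of the 31-base words in its full annotated transcripts, 57.7% are shared with other genes, and the share in the coding part was not measured. Lifr, the partner of gp130 in LIF reception, was at 22.3 CPM ± 4.48 (SD, n = 6) and 21.7 CPM ± 3.87 (SD, n = 5), and was chosen after its values were seen.

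Among kinases and other STAT genes 0 of 6 passed. Jak1 had means of 158 CPM with and 157 CPM without Cre, and was also chosen after its values were seen. Stat5a, which drives milk production, had the smallest p-value of this list. Knockout values lay between 98.5 and 178 CPM, Wild-Type values between 69.9 and 127 CPM, with a log2 fold change of 0.43 ± 0.19 (standard error; adjusted p = 0.379 in edgeR).

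Among 9 inhibitors of the pathway 0 passed in edgeR, and Cish and Ptpn6 passed in DESeq2. Cish, a feedback inhibitor known as a STAT5 target, was at 7.04, 3.58, 5.75, 7.97, 5.84 and 4.24 CPM in Knockout libraries 1 to 6 and at 7.63, 11.4, 17.8, 10.1 and 10.4 CPM in Wild-Type libraries 1 to 5. Only Knockout 4 exceeded the lowest Wild-Type library. Its log2 fold change was -0.999 ± 0.236 (standard error; adjusted p = 0.218 in edgeR, DESeq2 adjusted p = 0.00880). Socs3, the main feedback inhibitor of STAT3, chosen after its values were seen, was at 1.83 CPM ± 0.989 (SD, n = 6) in Knockout against 1.97 CPM ± 0.419 (SD, n = 5) in Wild-Type (edgeR adjusted p = 0.925).

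Ptpn6, a phosphatase abundant in blood cells, was at 9.93 CPM ± 1.75 (SD, n = 6) and 18.6 CPM ± 8.30 (SD, n = 5), with a log2 fold change of -0.90 (edgeR adjusted p = 0.269, DESeq2 adjusted p = 0.0347). Its highest libraries were Wild-Type 5, at 29.3 CPM, and Wild-Type 2, at 25.7 CPM. The summed T cell markers were at 15.8 and 8.77 CPM in these 2 libraries, against 0.819 to 5.17 CPM in the other 9, with 4 of 4 tested markers of 5 lower in Knockout, 0 called and none at 0 reads in any library. These values do not single out T cells among the blood cells of the gland. Their part in the result was not tested. The same 2 libraries were highest for Pik3cd, the PI3-kinase catalytic subunit of leukocytes and the gene with the smallest p-value of the 8 on PI3-kinase and AKT, at 14.1 and 10.8 CPM, against 1.85 to 5.13 CPM in the others (log2 fold change -1.22; edgeR adjusted p = 0.330, DESeq2 adjusted p = 0.107, and 0.0410 in DESeq2 without Knockout 1). Without Wild-Type 5 the log2 fold change in edgeR was -0.81.

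Among 17 known STAT3 targets and acute phase genes, 11 had positive and 6 negative log2 fold changes, with a median of 0.16, and 0 passed. Tgfb3, a growth factor known to rise early in involution, had the smallest p-value. It was at 36.5, 45.1, 19.8, 19.2, 13.6 and 16.4 CPM in Knockout libraries 1 to 6 and at 13.8, 7.31, 13.8, 16.46 and 10.5 CPM in Wild-Type libraries 1 to 5. Knockout 1 and Knockout 2, which were also the highest libraries of Clu and of the p55 form, stood above the rest. Its log2 fold change was 1.02 ± 0.34 (standard error; adjusted p = 0.310 in edgeR). Genes on the opposite strand overlap Tgfb3, Cish, Ptpn6, Bcl3 and Cebpd, so that reads of either strand may be mixed in them.

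The NF-kappaB list, partners of Bcl3, held 0 of 5 genes at an unadjusted p under 0.05, which 12.4% of all genes reached. Nfkbia had the smallest p-value, at 63.4 CPM ± 7.60 (SD, n = 6) and 70.7 CPM ± 9.62 (SD, n = 5; edgeR adjusted p = 0.561). Its log2 fold change of -0.16 was -0.09 without Wild-Type 1. The list on the insulin-like growth factor axis also had 0 of 7 at that level, against the same 12.4%. Its gene with the smallest p-value, Igfbp6, was at 10.3 CPM ± 4.69 (SD, n = 6) and 7.41 CPM ± 1.27 (SD, n = 5; edgeR adjusted p = 0.501). Knockout 2 was at 19.1 CPM for Igfbp6, and the log2 fold change of 0.47 was 0.20 without it.

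**Figure D4:**
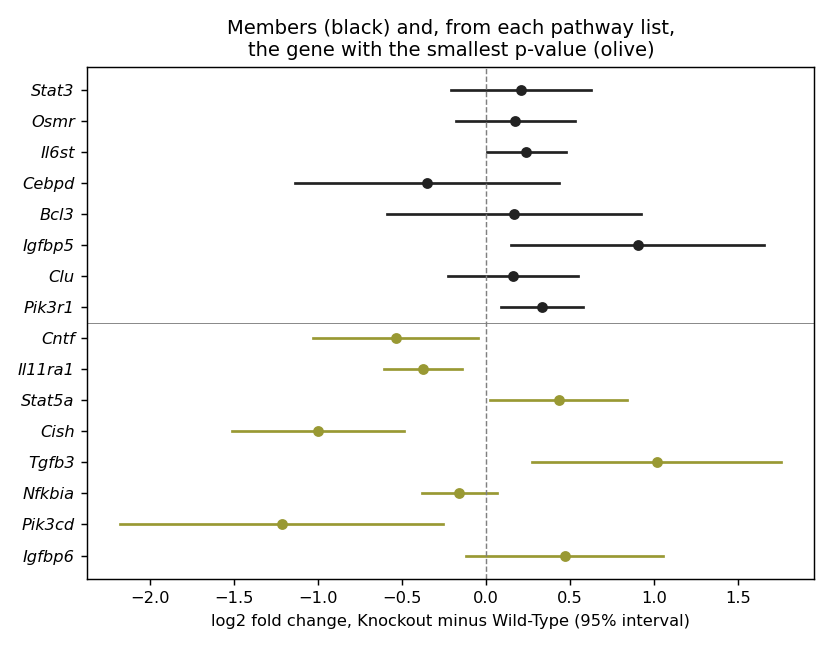
Log2 fold change (Knockout minus Wild-Type) with its 95% interval for the 8 tested members (black) and for the gene with the smallest p-value of each of 8 pathway lists (olive). No gene shown passed the adjusted threshold in edgeR, and the intervals of Il6st, Igfbp5 and Pik3r1 are the ones among members that lie above 0.

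STAT factors are known to bind the palindrome TTCNNNGAA, which reads the same on both strands. RefSeq promoter windows (GRCm38.p6, 250 bases before to 50 after a start) were at hand for 7 members in 8 windows, and 0 of these held the motif, while 8.30% of 32851 windows did. Of 72 windows of 48 pathway genes, 4 held it, those of Socs3, Cish, Nfkb2 and Akt2. The other inhibitors with a window, Socs1, Pias1, Pias3, Ptpn6 and Ptpn11, had no match. Socs3 and Cish are shown because they are the feedback inhibitors described above, with 10 bases on either side and the motif in capitals.
Socs3 (chr11:117969502-117969530, minus strand): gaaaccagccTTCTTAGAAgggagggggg
Cish (chr9:107296649-107296677, plus strand): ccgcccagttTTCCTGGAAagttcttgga
The Cish window holds another match, TTCTTGGAA, which starts 11 bases after the start of the one shown. A match describes letters and not binding, and its absence covers this window only.

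Libraries of 1 genotype differed among themselves in the members. The highest library was Knockout 2 for Stat3, Lif, Osmr and Il6st, and Knockout 1 for Bcl3, Igfbp5, Clu and Pik3r1, while Wild-Type 1 was highest for Cebpd. Wild-Type 5 was the lowest library for Stat3, Osmr, Il6st and Cebpd. The ratio of the highest to the lowest library was 2.29 for Stat3, 1.56 for Il6st, 4.40 for Cebpd and 6.54 for Igfbp5. Knockout 1 and Knockout 2 also had the lowest milk protein markers, at 340053 and 386940 CPM, and 5 of 5 of these markers had lower means in Knockout, with 0 called. Knockout 1 had the highest summed adipocyte markers, at 1424 CPM. Knockout 2 had the highest summed luminal keratins, at 875 CPM, followed by Wild-Type 4 at 778 CPM, while Wild-Type 2 was lowest at 404 CPM. Fibroblast markers were also highest in Knockout 2, at 644 CPM, and lowest in Wild-Type 2, at 202 CPM. In both lists 5 of 5 markers had higher means in Knockout, with 0 called. The part of these in the members' levels was not tested.

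**Figure D5:**
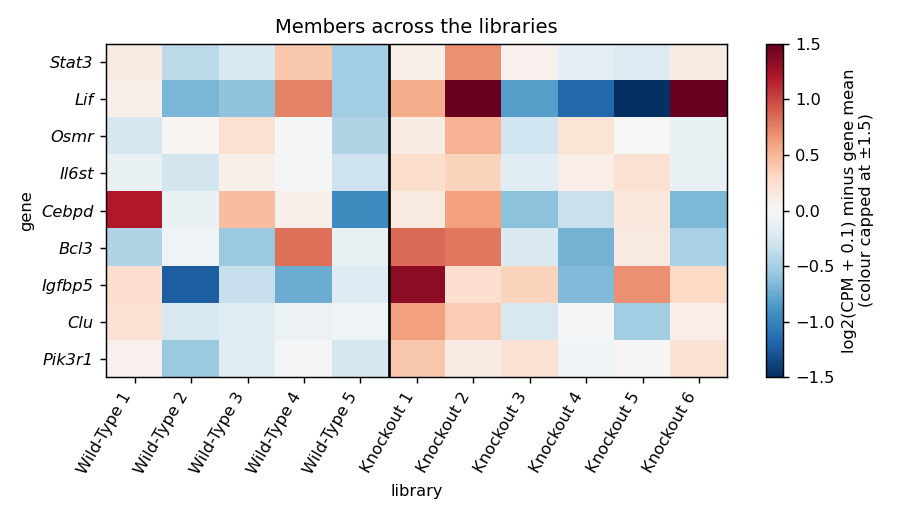
Log2(CPM + 0.1) of each member minus its mean over the 11 libraries, with colours capped at ±1.5, Wild-Type libraries to the left of the line and Knockout to the right. Knockout 2 is highest for Stat3, Lif, Osmr and Il6st, and Wild-Type 5 is lowest for Stat3, Osmr, Il6st and Cebpd.

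Of 36 correlations of log2 CPM between members over the 11 libraries, 35 were positive, with a median Pearson r of 0.419, and 0 passed the threshold after adjustment (5 had an unadjusted permutation p under 0.05). The highest r without regard to genotype was between Igfbp5 and Pik3r1, with r = 0.828 (permutation p = 0.00187, adjusted 0.0673) and Spearman's rho = 0.809 (permutation p = 0.00428, adjusted 0.146), and r = 0.537 without Knockout 1 and Wild-Type 2. The receptor genes Osmr and Il6st had r = 0.783 (permutation p = 0.00387, adjusted 0.0697) and rho = 0.764 (permutation p = 0.00813, adjusted 0.146), and r = 0.567 without Knockout 2 and Wild-Type 5. With genotype means subtracted, r was 0.717 for Igfbp5 and Pik3r1, below 0.770 for Osmr and Il6st, 0.767 for Stat3 and Lif and 0.733 for Il6st and Cebpd.

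Stat3 was most closely related to Lif among the members, with r = 0.758 (permutation p = 0.00659, adjusted 0.0791) and rho = 0.709 (permutation p = 0.0182, adjusted 0.163), and r = 0.672 without Knockout 2 and Wild-Type 5. Lif held between 0 and 39 reads per library, so that its lowest log2 values rest largely on the prior count of 2. This limit holds for every correlation with Lif given here. The relation of Stat3 to Il6st, at r = 0.517, rested on the same 2 libraries, Knockout 2 and Wild-Type 5, since r was 0.01 without them (permutation p = 0.102, adjusted 0.375, and rho = 0.473 with permutation p = 0.145, adjusted 0.526). On the scale of log2 TPM 19 of 36 correlations passed. This scale has no TMM scaling, divides by length and adds 0.1 in place of the prior count, and the cause was not tested.

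The genes whose pattern was most like that of 3 members were found by Pearson correlation of log2 CPM over the 11 libraries after each genotype mean was subtracted, among 12396 genes. For Stat3 they were Rffl (r = 0.973), Irx1 (0.959) and Rac1 (0.959). For Lif they were Sat1 (0.961), Dhx32 (0.947) and Psrc1 (0.919), and for Cebpd they were Adipor2 (0.930), Cuedc1 (0.916) and Agmo (0.913). These are the highest of many correlations over few libraries and are given as a description.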

How the data were processed

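RNA of 11 mammary glands was measured by sequencing of strand-specific libraries, per the labels' protocols. Salmon 1.3.0, DESeq2 1.28.1 and the build GRCm38.p6 are named in the submitters' processing notes; further settings are not given in the sources used here. The deposited tables give, per the file headers, estimated counts and TPM per transcript, with transcript lengths and effective lengths. A gene table that the authors deposited, named as DESeq2-normalized counts, was taken as a signal on their scale and used in an alternative only.

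Estimated counts were summed per gene through GENCODE M21 (57452 of 58204 transcripts matched; the rest held 0.195% to 0.265% of the reads) and rounded. filterByExpr left 12716 genes, with TMM scaling and edgeR 4.0.16 quasi-likelihood tests with genotype as the only term, Benjamini-Hochberg adjustment over all genes tested and a threshold of 0.05. Standard errors and 95% intervals come from that test. Scripts were tested on simulated data. TPM of a gene was summed over transcripts with at least 100 effective bases. Correlations used 100000 permutations and a prior count of 2. Alternatives used DESeq2 1.42.0, limma 3.58.1 on log2(value + 1), other scaling, no filter, length offsets, a replicate block and leaving out each library.

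Members and lists were chosen with earlier results of these data known. Named genes are the members, Tsc1, the gene with the smallest p-value in each list, genes past the threshold and the 3 genes most like Stat3, Lif and Cebpd. Outside this rule, Lifr, Jak1, Socs3, the untested cytokines and the genes with a promoter motif or window were named after their values were seen. Short forms of Pik3r1 are transcripts with under 1500 coding bases, and shorter Stat3 forms those more than 10 codons shorter than the longest. Intervals of fold changes include the spread between libraries, and the limit for 0 reads covers counting error only. A marker list is not reported here.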

Additional observations from a re-analysis of the deposited data

Results flagged for a closer look

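A highest or lowest library was noted where its gap to the nearest other library, divided by the range of its genotype, exceeded Dixon's 95% critical value. This was met 3 times in 26 sets of gene or form levels, each of 1 genotype. Chance gives this in about 1 in 20 groups, here about 1.3. Stat3 was at 164 CPM in Knockout 2, against 88.6 to 111 CPM in the other Knockout libraries. Bcl3 was at 9.75 CPM in Wild-Type 4, against 3.68 to 5.26 CPM in the other Wild-Type libraries. The p55 form of Pik3r1 was at 21.4 TPM in Wild-Type 4, against 13.7 to 15.1 TPM in the other Wild-Type libraries. In TMM-scaled CPM this library did not stand apart for the p55 form, at 53.9 CPM with Wild-Type 3 next at 51.7 CPM.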

How the results depend on the processing

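Over 22 alternatives, where the unblocked fit of replicates 1 to 5 is the fit without Knockout 6, 7 of the 8 tested members kept the sign of their log2 fold change and 0 members passed the threshold in any. Bcl3 turned to -0.0114 without Knockout 1 and to -0.00749 in DESeq2 without Knockout 1, and leaving out 1 library moved it from -0.0114 to 0.481. The members called were 0 with the replicate block as well. The count of all genes called was 7 and became 146 in DESeq2, 183 in DESeq2 without Knockout 1, and 0 with the replicate block, which keeps replicates 1 to 5, as it did on these replicates unblocked; leaving out 1 library gave 0 to 28. Pathway genes called were 0, 2 in DESeq2 and 3 in DESeq2 without Knockout 1, where Pik3cd joined Cish and Ptpn6. The labels do not say whether the replicate numbers pair the samples. Same-numbered libraries had correlations of their deviations between -0.22 and 0.19, with 1 of 5 over 0.1. So few correlations cannot exclude a pairing. In the replicate block the short-form share of Pik3r1 differed by 5.78 and that of Stat3 by 0.01 percentage points. Leaving out 1 library moved them from 2.62 to 8.01 and from -0.34 to 0.81, the latter turning to -0.34 without Wild-Type 2 and -0.03 without Wild-Type 5. On log2 TPM 19 of the 36 correlations passed, 6 of them with Stat3, against 0 and 0; the cause was not tested. Leaving out 1 library gave 0 to 1. Scaling by library size, without TMM, moved the median log2 fold change of all genes to 0.18 and that of Stat3 to 0.40, Osmr to 0.38, Il6st to 0.44, Bcl3 to 0.36, Clu to 0.38, Pik3r1 to 0.53, Igfbp5 to 1.15 and Cebpd to -0.11. Length offsets limited to 100 or more effective bases, library size scaling, DESeq2 without Knockout 1, the unblocked fit and leaving out libraries for Lif were chosen after seeing the data. Lif and 4 cytokines were too low to test after the filter.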
